A study of Oryza sativa with 18 samples.

Results

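TIFY11A, TIFY11B, TIFY11C, TIFY11D and TIFY11E are the rice jasmonate ZIM-domain (JAZ) genes of the TIFY11 group, known also as JAZ9, JAZ10, JAZ11, JAZ12 and JAZ13. They were taken by symbol or synonym, and they make 5 of the 17905 genes that had at least 1 probe set of their own on the array. For each gene the probe set with the highest mean signal over all 18 arrays was used. TIFY11B alone had another probe set, which is reported beside it. The gene identifiers are 4331832 for TIFY11A, 4331834 for TIFY11B, 4331833 for TIFY11C, 4348533 for TIFY11D and 4348531 for TIFY11E. In the RefSeq gene table TIFY11A, TIFY11C and TIFY11B follow each other on chromosome 3 with 0 protein-coding genes between neighbours. TIFY11E and TIFY11D lie on chromosome 10 with 2 unnamed protein-coding genes between them.

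The samples were labelled as leaf sheath of 3-week-old rice plants with 4 leaves (the growth protocol names the leaf numbered 4 as the material, and which is meant was not settled), in 6 groups of 3 biological replicates, each on 1 Affymetrix array. NIL-BPH9, described as resistant to the brown planthopper (BPH), was sampled at 0, 3 and 6 h of infestation, and so was the variety 9311, described as susceptible. The brown planthopper is an insect that sucks phloem sap from the sheath, and BPH9 is the name of a rice gene for resistance to it. Both lines were uninfested at 0 h and carried the insects at 3 and 6 h. The sample titles give no time of day, so time of day and infestation cannot be told apart in any change over time. Each line is a single genotype, the labels name no other allele, and they do not say whether a replicate pools several plants.

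JAZ proteins are repressors of the jasmonate pathway. When an attacked plant makes jasmonoyl-isoleucine, the receptor COI1 binds JAZ proteins together with this hormone, and the JAZ proteins are then ubiquitinated and destroyed, which frees MYC transcription factors that the JAZ proteins had held inactive with the adaptor NINJA and TOPLESS-type co-repressors. JAZ genes are themselves among the genes that jasmonate switches on, a negative feedback known in Arabidopsis and rice, so transcript levels of JAZ genes are widely used as a readout of the pathway, while the amount of JAZ protein can move the other way.

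All values below are log2 signals (MAS5, as deposited), in which 1 unit is a doubling, and levels of different genes are not compared because each probe set has its own brightness. Array medians lay between 5.18 and 5.52, and the member probe sets were at or above the median on all 18 arrays. Pearson's r between arrays was 0.956 to 0.967 within a group and 0.940 to 0.960 across groups. Of 5 leaf photosynthesis genes, 4 were at or above the median on every array (RBCS1 was below it throughout), as were 2 of 7 seed storage genes and 6 of 8 genes listed for roots. The lists were matched by name. The symbol RSS1 matched a gene of that name and another that the gene table names OsSUS2. Both are among the 6, so the root count is a weak check of tissue. The mean log2 ratio of 3′ over 5′ control probe sets, a sign of RNA quality, was 2.36 ± 0.04, 2.11 ± 0.03 and 2.23 ± 0.11 in NIL-BPH9 at 0, 3 and 6 h and 2.16 ± 0.04, 2.25 ± 0.05 and 2.26 ± 0.13 in 9311 (SD over 3 arrays each). Its part in the results was not tested.

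The TIFY11 genes rose in both lines after infestation. In NIL-BPH9, 5 of 5 were higher at 3 h and 5 of 5 at 6 h, and in 9311, 4 of 5 were higher at 3 h and 5 of 5 at 6 h, with 0 lower. Of all tested probe sets 7.61 and 8.28 percent were called higher in NIL-BPH9 at these times, and 7.61 and 4.29 percent in 9311. The call of TIFY11E in 9311 at 3 h had overlapping groups and was lost in 10 of 14 alternatives. From 3 h on, 5 of 5 were higher in NIL-BPH9 than in 9311, as were 4.25 percent of tested probe sets at 3 h and 5.75 percent at 6 h. In sheath extracts, more RNA per cell and more cells that express a gene cannot be told apart.

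TIFY11A, which in rice is linked to salt tolerance through its contacts with bHLH factors and NINJA, had log2 signals in NIL-BPH9 of 6.52, 7.14 and 7.35 at 0 h, 9.02, 9.14 and 8.89 at 3 h, and 10.02, 10.01 and 10.07 at 6 h. In 9311 it had 6.80, 6.73 and 7.20 at 0 h, 7.60, 7.50 and 7.06 at 3 h, and 8.79, 8.25 and 8.42 at 6 h. The uninfested arrays of both lines overlapped, the 3 h arrays of 9311 reached down into the 0 h range, and the 3 h arrays of NIL-BPH9 all lay above the 6 h arrays of 9311. Replicates of NIL-BPH9 were farthest apart at 0 h (SD 0.43) and closest at 6 h (SD 0.03).

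TIFY11B, whose overexpression in rice has been tied to larger grains, had log2 signals in NIL-BPH9 of 10.67, 10.77 and 10.74 at 0 h, 11.79, 11.94 and 11.89 at 3 h, and 12.88, 12.92 and 12.85 at 6 h. In 9311 the signals were 10.15, 10.03 and 9.96 at 0 h, 10.89, 10.85 and 10.78 at 3 h, and 11.71, 11.74 and 11.78 at 6 h. No groups overlapped, and the 0 h arrays of NIL-BPH9 lay just under the 3 h arrays of 9311. Its name on the array ends in a suffix for probes that can match several transcripts, although the annotation gives it 1 gene. The other TIFY11B probe set, without that suffix, correlated with it at 0.986 over 18 arrays and gave means of 9.09, 10.52 and 11.39 in NIL-BPH9 and 8.73, 9.45 and 10.21 in 9311 at 0, 3 and 6 h, in the same order of groups and again with no overlap between neighbours in that order.

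TIFY11E, the neighbour of TIFY11D on chromosome 10, had log2 signals in NIL-BPH9 of 8.74, 8.81 and 8.83 at 0 h, 10.03, 10.29 and 10.07 at 3 h, and 11.42, 11.34 and 11.32 at 6 h. The signals of TIFY11E in 9311 were 8.16, 8.06 and 8.52 at 0 h, 8.85, 8.56 and 8.41 at 3 h, and 9.63, 9.71 and 9.67 at 6 h. In 9311 the 0 h and 3 h arrays overlapped and only the 6 h arrays stood clear, whereas in NIL-BPH9 the 3 times were separate.

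TIFY11C, the middle gene of the chromosome 3 group, had log2 signals in NIL-BPH9 of 8.59, 8.10 and 8.48 at 0 h, 11.24, 11.20 and 11.24 at 3 h, and 10.86, 11.08 and 10.97 at 6 h. In 9311 it read 8.60, 8.11 and 8.60 at 0 h, 9.45, 9.24 and 9.27 at 3 h, and 9.76, 9.61 and 9.62 at 6 h. It is the member whose highest group was NIL-BPH9 at 3 h, where the 3 arrays were close together (SD 0.02), and at 0 h the lines overlapped.

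TIFY11D had log2 signals in NIL-BPH9 of 9.39, 9.28 and 9.30 at 0 h, 10.70, 10.79 and 10.74 at 3 h, and 10.86, 10.83 and 10.71 at 6 h. For 9311 the TIFY11D signals were 8.95, 8.80 and 8.71 at 0 h, 9.91, 10.05 and 9.93 at 3 h, and 10.10, 10.06 and 9.94 at 6 h. In both lines the 3 h and 6 h arrays overlapped and stood above the 0 h arrays.

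**Figure D1:**
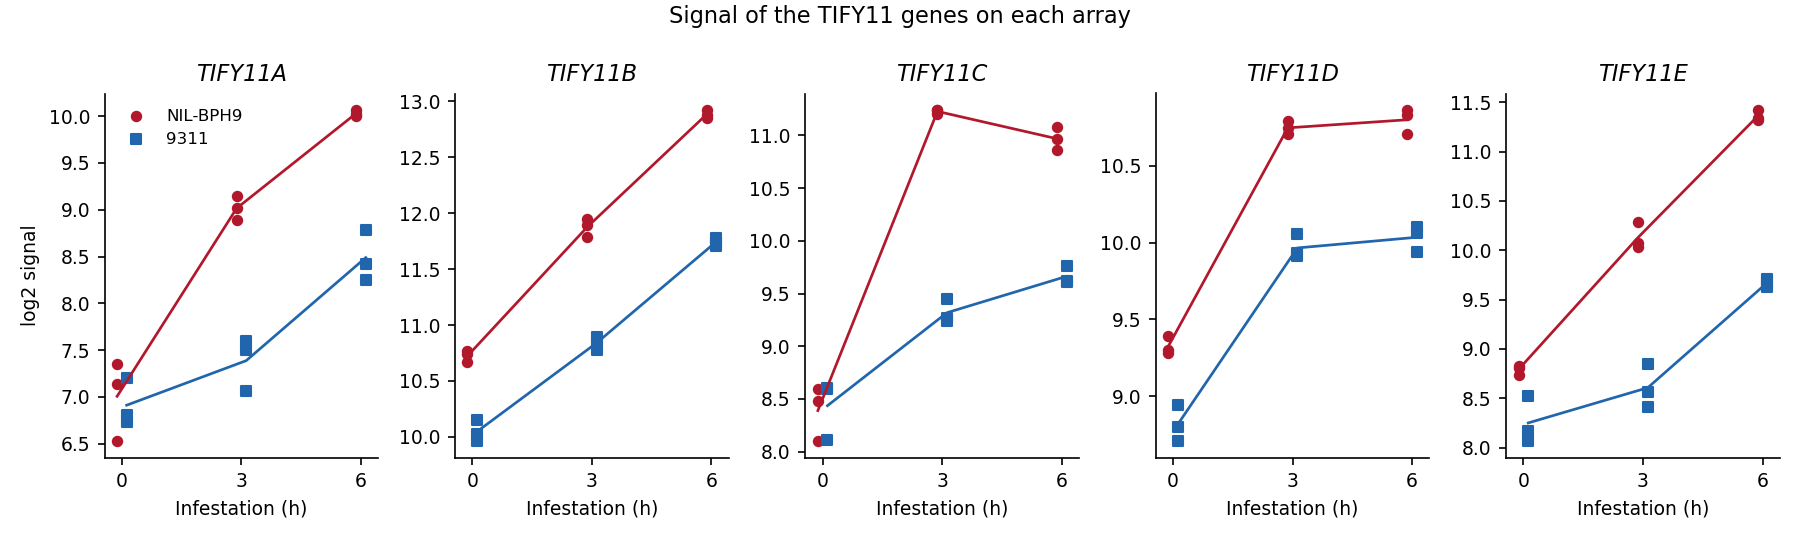
Log2 signal (vertical axis, own scale in each panel) of the 5 TIFY11 genes on each of 18 arrays against hours of infestation (horizontal axis). NIL-BPH9 arrays are red circles and 9311 arrays blue squares, and lines join the group means. TIFY11A, TIFY11B and TIFY11E climb from 0 over 3 to 6 h, TIFY11D in both lines and TIFY11C in NIL-BPH9 are at 3 h already near or above their 6 h level, TIFY11C in 9311 had 71.9% of its 6 h change at 3 h, and at 3 and 6 h the NIL-BPH9 arrays of every gene lie above the 9311 arrays of the same time.

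In NIL-BPH9 at 3 h of infestation against 0 h, the log2 changes ran between 1.15 and 2.84 with a median of 1.42, against a median of -0.0045 over 16053 genes. TIFY11C rose 7.16-fold, a log2 change of 2.84 ± 0.13 (SE, limma adjusted p = 1.64e-11), and ranked 18 of 16053 genes from the largest rise. TIFY11A rose 4.03-fold (2.01 ± 0.20, adjusted p = 6.59e-07). TIFY11D rose 2.68-fold (1.42 ± 0.08), TIFY11E 2.53-fold (1.34 ± 0.11) and TIFY11B 2.22-fold (1.15 ± 0.06), with adjusted p of 1.22e-07 or lower. The 5 of 5 members called higher stand beside 7.61 percent of all 33094 tested probe sets called higher in this comparison (14.1 percent in either direction). The groups did not overlap for 5 of 5, against 15.8 percent of all probe sets with every 3 h array above every 0 h array.

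At 6 h against 0 h in NIL-BPH9 the median log2 change of the members was 2.57, and the comparison shares its 0 h arrays with the one before. TIFY11A was highest at 8.14-fold (log2 3.03 ± 0.20, 95% interval 2.61 to 3.44, adjusted p = 2.37e-09), rank 17 of 16053. TIFY11C rose 5.98-fold (2.58 ± 0.13), TIFY11E 5.92-fold (2.57 ± 0.11) and TIFY11B 4.47-fold (2.16 ± 0.06), at ranks 30, 31 and 55. TIFY11D, 2.78-fold (1.47 ± 0.08), had the smallest rise of the 5 at this time. Again 5 of 5 were called and did not overlap, where 8.28 percent of tested probe sets were called higher (18.7 percent in either direction) and 15.3 percent lay wholly above.

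In 9311 the rises were smaller and at 3 h uneven. TIFY11D rose 2.22-fold at 3 h against 0 h (log2 1.15 ± 0.08, adjusted p = 5.37e-09), TIFY11C 1.84-fold (0.88 ± 0.13, adjusted p = 6.87e-05) and TIFY11B 1.73-fold (0.79 ± 0.06, adjusted p = 2.68e-08). TIFY11A did not pass, at 0.48 ± 0.20 (adjusted p = 0.124). TIFY11E passed at 0.36 ± 0.11 (adjusted p = 0.0426) with overlapping groups. That call was lost without 9311 replicate 1 or 2 at 0 h (adjusted p = 0.119 and 0.2) and without 9311 replicate 1 or 2 at 3 h (adjusted p = 0.228 and 0.0753), where the change ran between 0.24 and 0.49 over the arrays left out in turn, and it was lost with 6 other settings. Of all tested probe sets 7.61 percent were called higher (14.8 percent in either direction), and 13.7 percent lay wholly above, as 3 of 5 members did.

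At 6 h against 0 h in 9311, 5 of 5 members rose and none overlapped. TIFY11B rose 3.24-fold (log2 1.70 ± 0.06, adjusted p = 1.13e-12), rank 29 of 16053, and TIFY11A 2.99-fold (1.58 ± 0.20, adjusted p = 2.89e-05), rank 46. TIFY11E rose 2.68-fold (1.42 ± 0.11), TIFY11C 2.34-fold (1.23 ± 0.13) and TIFY11D 2.32-fold (1.22 ± 0.08). Over all probe sets 4.29 percent were called higher (7.62 percent in either direction) and 9.94 percent lay wholly above.

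**Figure D2:**
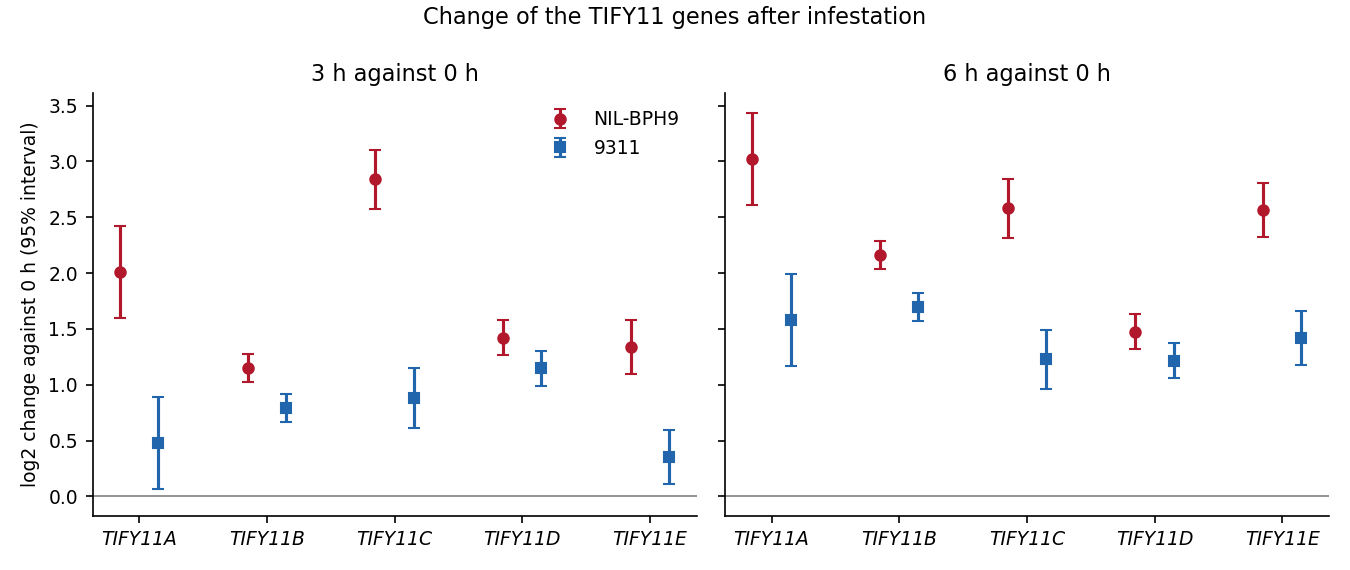
Log2 change against the uninfested plants of the same line (vertical axis) for each TIFY11 gene, at 3 h on the left and 6 h on the right, with NIL-BPH9 as red circles and 9311 as blue squares. Bars are 95% intervals from the fit over 18 arrays. The NIL-BPH9 point is the higher one in every pair, by the widest margin for TIFY11C at 3 h (2.84 in NIL-BPH9 and 0.88 in 9311) and by the narrowest for TIFY11D at 6 h (1.47 in NIL-BPH9 and 1.22 in 9311).

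The members differed in when they reached their level. Between 3 and 6 h in NIL-BPH9, TIFY11E rose by a further 1.23 ± 0.11 on the log2 scale (adjusted p = 2.66e-07), TIFY11A by 1.02 ± 0.20 (adjusted p = 0.00119) and TIFY11B by 1.01 ± 0.06 (adjusted p = 3.26e-10). TIFY11D did not pass (0.05 ± 0.08, 95% interval -0.11 to 0.21, adjusted p = 0.726). TIFY11C had a log2 change of -0.26 ± 0.13 (95% interval -0.53 to 0.01, adjusted p = 0.198), with every 6 h array under every 3 h array. It passed when only the groups compared were fitted (adjusted p = 0.0107). The 3 of 5 called and lying wholly above compare with 7.17 percent of tested probe sets called higher (14.9 percent in either direction) and 15.1 percent wholly above.

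The same 3 genes were called between 3 and 6 h in 9311, where TIFY11A rose 2.15-fold (log2 SE 0.20, adjusted p = 0.0015), TIFY11E by 1.07 ± 0.11 on the log2 scale (adjusted p = 5.39e-06) and TIFY11B by 0.90 ± 0.06 (adjusted p = 6.1e-09). TIFY11C, at 0.34 ± 0.13 (adjusted p = 0.147), did not pass, although its arrays did not overlap, and TIFY11D was at 0.07 ± 0.08 (adjusted p = 0.74). Over all probe sets 2.96 percent were called higher (5.14 percent in either direction), and 11.1 percent lay wholly above, as 4 of 5 members did.

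As a share of the 6 h log2 change, TIFY11D had reached 96.4% at 3 h in NIL-BPH9 and 94.3% in 9311. TIFY11C had reached 110.1% in NIL-BPH9 and 71.9% in 9311. The share was 66.4% in NIL-BPH9 and 30.2% in 9311 for TIFY11A, 53.3% in NIL-BPH9 and 46.7% in 9311 for TIFY11B, and 52.1% in NIL-BPH9 and 25.1% in 9311 for TIFY11E. These shares describe the means and were not tested.

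Whether the step between 3 and 6 h differed between the lines was tested by the interaction. None of the 5 passed in limma, 1 of 5 had an unadjusted p under 0.05, and 4.38 percent of tested probe sets were called. The 1 gene was TIFY11C, with NIL-BPH9 minus 9311 at -0.60 ± 0.18 (adjusted p = 0.0651). It passed with log2(signal + 32) (adjusted p = 0.0498), with the replicate block (adjusted p = 0.0489) and with only the groups compared (adjusted p = 0.00198). TIFY11A, TIFY11B, TIFY11D and TIFY11E had differences of -0.09, 0.10, -0.02 and 0.16, with adjusted p of 0.608 or higher. The sign for TIFY11A turned without 9311 replicate 3 at 3 h (0.075) or 9311 replicate 1 at 6 h (0.064). That for TIFY11D turned, to at most 0.03, without 9311 replicate 1 or 3 at 3 h, 9311 replicate 1 at 6 h, NIL-BPH9 replicate 2 at 3 h or NIL-BPH9 replicate 3 at 6 h.

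Before infestation 3 of the 5 genes were already higher in NIL-BPH9 than in 9311. TIFY11B was 1.60-fold higher (log2 0.68 ± 0.06, adjusted p = 1.91e-07), and its other probe set gave 0.37 ± 0.09 (adjusted p = 0.012). TIFY11E was 1.46-fold higher (0.54 ± 0.11, adjusted p = 0.00289), a call lost when only the groups compared were fitted (adjusted p = 0.0681), and TIFY11D 1.42-fold (0.51 ± 0.08, adjusted p = 0.000108). TIFY11A and TIFY11C did not pass, at 0.10 (95% interval -0.32 to 0.51) and -0.05 (95% interval -0.31 to 0.22). The sign turned without NIL-BPH9 replicate 3 for TIFY11A (-0.08), and without 9311 replicate 1 (0.03), 9311 replicate 3 (0.04) or NIL-BPH9 replicate 2 (0.10) for TIFY11C. For comparison 6.92 percent of tested probe sets were called higher in NIL-BPH9 (14.4 percent in either direction), and 12.9 percent lay wholly above, as 3 of 5 members did.

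At 3 h of infestation, 5 of 5 were higher in NIL-BPH9 and none overlapped. TIFY11C was 3.76-fold higher (log2 1.91 ± 0.13, adjusted p = 3.84e-09), TIFY11A 3.09-fold (1.63 ± 0.20, adjusted p = 1.16e-05) and TIFY11E 2.88-fold (1.52 ± 0.11, adjusted p = 2.27e-08). TIFY11B was 2.05-fold higher (1.03 ± 0.06) and TIFY11D 1.72-fold (0.78 ± 0.08). Of all tested probe sets 4.25 percent were called higher (7.46 percent in either direction) and 13.9 percent lay wholly above.

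At 6 h the differences kept their direction for 5 of 5, again with no overlap. TIFY11E was 3.22-fold higher in NIL-BPH9 (1.69 ± 0.11, adjusted p = 6.14e-09), TIFY11A 2.91-fold (1.54 ± 0.20, adjusted p = 2.03e-05), TIFY11C 2.47-fold (1.31 ± 0.13, adjusted p = 7.08e-07) and TIFY11D 1.70-fold (0.76 ± 0.08, adjusted p = 8.72e-07). TIFY11B was higher by 1.14 ± 0.06 on the log2 scale (adjusted p = 1.18e-10). Here 5.75 percent of tested probe sets were called higher (11.3 percent in either direction) and 14.0 percent lay wholly above.

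**Figure D3:**
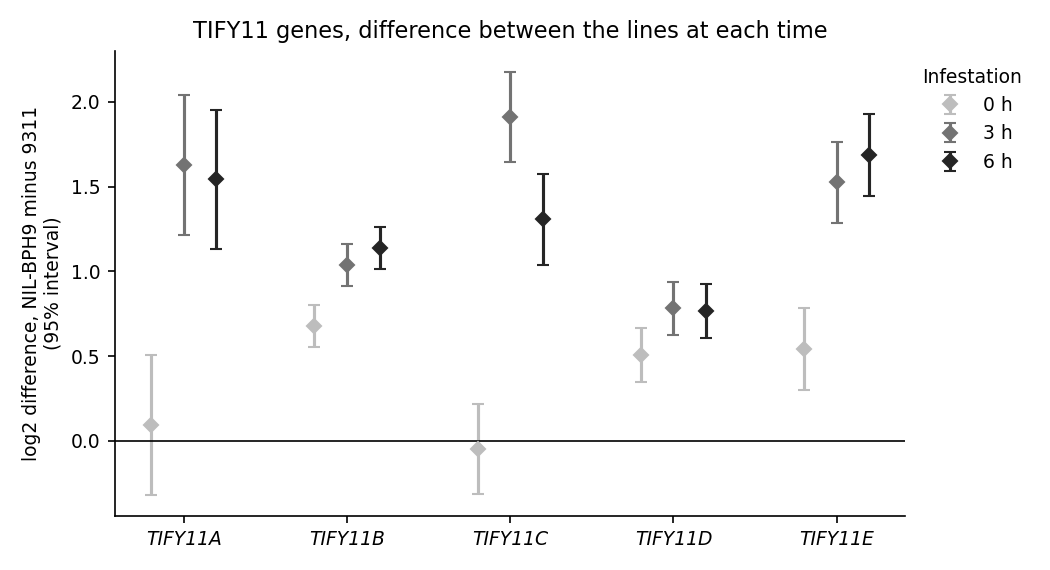
Log2 difference, NIL-BPH9 minus 9311 (vertical axis), for each TIFY11 gene at 0 h (light grey), 3 h (mid grey) and 6 h of infestation (black). Bars are 95% intervals from the fit over 18 arrays, and the line at 0 marks equal levels. At 0 h the intervals of TIFY11A and TIFY11C span 0, and at 3 and 6 h the intervals of all 5 genes lie above it.

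The response itself was larger in NIL-BPH9 for 4 of 5 members at 3 h and for 4 of 5 at 6 h by the interaction test, against 5.80 percent of tested probe sets called larger at 3 h (10.5 percent in either direction) and 3.83 percent at 6 h (7.03 percent in either direction). TIFY11C differed most at 3 h, by 1.96 ± 0.18 on the log2 scale (adjusted p = 8.25e-07), and by 1.35 ± 0.18 at 6 h (adjusted p = 0.000155). For TIFY11A the difference in response was 1.53 ± 0.28 at 3 h (adjusted p = 0.00114) and 1.45 ± 0.28 at 6 h (adjusted p = 0.00381). TIFY11E differed by 0.98 ± 0.16 at 3 h (adjusted p = 0.000513) and 1.14 ± 0.16 at 6 h (adjusted p = 0.000299).

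TIFY11B, with the smallest of the called differences, was at 0.36 ± 0.08 at 3 h (adjusted p = 0.00863) and 0.46 ± 0.08 at 6 h (adjusted p = 0.00252). The 3 h call was lost with arrays centred on their median (0.34, adjusted p = 0.138), and the other probe set gave larger differences, 0.70 at 3 h and 0.81 at 6 h (adjusted p = 0.00166 and 0.00114). TIFY11D did not pass at 3 h (0.27, 95% interval 0.05 to 0.50, adjusted p = 0.117) or at 6 h (0.26, 95% interval 0.03 to 0.48, adjusted p = 0.157). Its 3 h difference passed with quantile normalization (0.31, adjusted p = 0.0452) and without 9311 replicate 3 at 0 h (0.33, adjusted p = 0.049). The 0 h arrays enter both responses of a line, so the 3 h and 6 h results are not independent.

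Ordered by mean level, the 6 groups ran in the same sequence for TIFY11A and TIFY11B, namely 9311 at 0 h, NIL-BPH9 at 0 h, 9311 at 3 h, 9311 at 6 h, NIL-BPH9 at 3 h and NIL-BPH9 at 6 h. For TIFY11A the first 3 of these overlapped with their neighbours, and for TIFY11B none did. TIFY11D had the same sequence, with overlap between 3 and 6 h within each line. TIFY11E had 9311 at 3 h below NIL-BPH9 at 0 h, and these and 9311 at 0 h overlapped with their neighbours. TIFY11C had NIL-BPH9 at 3 h on top, above NIL-BPH9 at 6 h with no overlap, and overlap only between the 0 h groups. Over the 18 arrays, which share the lines and times, the members correlated at 0.859 (TIFY11D with TIFY11E, the pair on chromosome 10) to 0.976 (TIFY11B with TIFY11E). On chromosome 3, TIFY11A correlated with TIFY11B at 0.960 and with TIFY11C at 0.906, and TIFY11B with TIFY11C at 0.867.

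Among 2257 other named genes, those whose signal followed the members most closely over the 18 arrays were found by Pearson correlation, as a description. LTR1, a MYB factor also called MYB4, was closest to TIFY11A (0.957) and TIFY11E (0.986). NH3, a relative of the salicylate receptor NPR1, was closest to TIFY11B (0.984) and also among the 3 closest to TIFY11A and TIFY11E. GRXS9, a glutaredoxin gene, followed TIFY11B (0.961) and TIFY11E (0.965). LTR1 rose by 0.71 at 3 h and 1.29 at 6 h in NIL-BPH9 on the log2 scale, and in 9311 it rose by 0.73 at 6 h and was at 0.26 at 3 h (adjusted p = 0.0984).

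A different set lay closest to TIFY11C and TIFY11D. SGR, the stay-green gene of chlorophyll breakdown, correlated with TIFY11C at 0.971 and with TIFY11D at 0.944, LIS, a linalool synthase for a plant volatile, with TIFY11C at 0.967, and the JAZ gene TIFY10C with TIFY11C at 0.953 and with TIFY11D at 0.964. TIFY10A was also near TIFY11D (0.957). LIS, like TIFY11C, rose at 3 h in both lines, by 4.29 in NIL-BPH9 and 1.13 in 9311 on the log2 scale, and between 3 and 6 h was at -0.45 in NIL-BPH9 (adjusted p = 0.216) and -0.08 in 9311 (adjusted p = 0.924). The 0 h mean of LIS in NIL-BPH9 was 5.82 ± 0.36, near the array median, so the size of its rise is uncertain. By the mean correlation over the 5 members the closest genes were OsWRKY76, a WRKY repressor (0.930), LTR1 (0.927), BHLH148, a bHLH factor of jasmonate signalling (0.927), NH3 (0.915) and SGR (0.905).

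Of 8 other JAZ genes on the array, 7 were bright enough to be tested, and TIFY5 was under the median on all 18 arrays. In NIL-BPH9, 6 of 7 rose at 3 h and 5 of 7 at 6 h with 0 lower, where 11.1% and 12.2% of 16053 genes were called higher. Their median log2 change was 0.74 at 3 h and 0.62 at 6 h. In 9311, 4 of 7 rose at each time, with medians of 0.50 and 0.53, where 11.2% and 6.37% of all genes were called higher.

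TIFY10C rose by 2.25 at 3 h and 1.75 at 6 h in NIL-BPH9 and by 1.36 and 1.47 in 9311. TIFY9 was called higher in NIL-BPH9 at both times (adjusted p = 0.00219 and 0.00521), with means of 7.60 at 3 h and 7.25 at 6 h, against 4.26 ± 1.19 at 0 h. That 0 h mean lay under the array median and may be background, so the size of the rise is uncertain. TIFY9 did not pass in 9311 (adjusted p = 0.87 and 0.344). TIFY10B rose more in 9311, with a 3 h response of 0.74 in NIL-BPH9 and 1.04 in 9311 (difference -0.30, adjusted p = 0.0124). Its means at 0 and 3 h were 13.31 and 14.04 in NIL-BPH9 and 12.91 and 13.95 in 9311, so its level was not higher in 9311 at either time. Between 3 and 6 h, 0 of the 7 rose in either line, while TIFY10C fell in NIL-BPH9 (-0.50, adjusted p = 0.00206) and TIFY10B and TIFY6A fell in 9311 (both -0.21, adjusted p = 0.0242 and 0.0376). The count of 2 falls in 9311 changed in 10 of 14 alternatives, between 0 and 2. Over all genes 10.4% were called higher and 11.0% lower in NIL-BPH9, and 4.37% and 3.00% in 9311. A count of 0 higher among 7 lies near these shares. At 6 h the interaction called 0 of 7 (limma). At 3 h it called TIFY10C (0.89) and TIFY10A (0.35) higher and TIFY10B lower, where 8.71% of all genes were called higher and 6.64% lower, and the count of 2 higher ran between 1 and 3 over the alternatives. TIFY genes outside the JAZ group, which lack the JAZ degron, gave 0 of 3 called in every comparison.

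**Figure D4:**
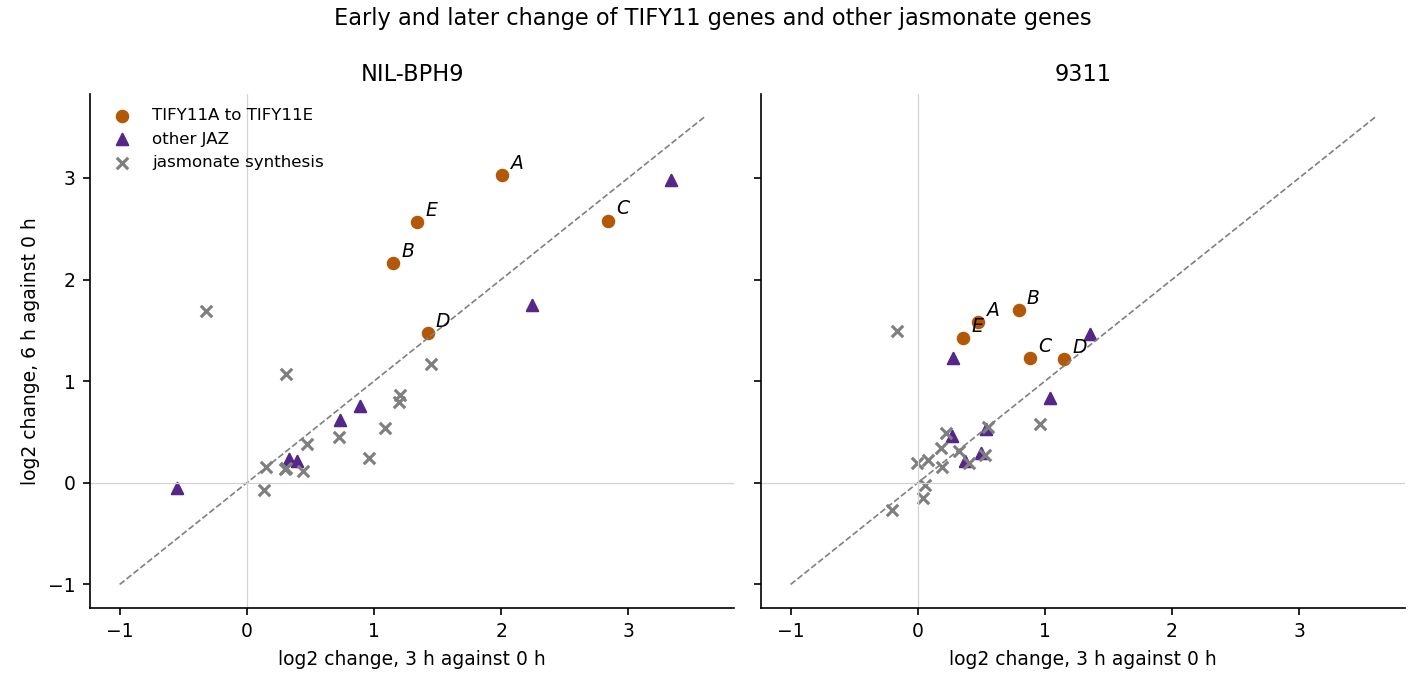
Log2 change at 3 h (horizontal axis) against log2 change at 6 h (vertical axis), each against 0 h of the same line, in NIL-BPH9 (left) and 9311 (right). Orange circles A to E are TIFY11A to TIFY11E, and purple triangles the 7 other JAZ genes (TIFY9, at the far right in NIL-BPH9, has an uncertain size). Grey crosses are 14 genes listed for jasmonate synthesis and conjugation, and the dashed line marks equal change at both times. TIFY11A, TIFY11B and TIFY11E lie above the line in both panels, and TIFY11C of NIL-BPH9 lies just under it (2.84 at 3 h and 2.58 at 6 h). Both axes share the 0 h arrays.

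Genes listed for jasmonate synthesis were also described. They were matched by name, and the list takes in lipoxygenase and reductase families whose part in making jasmonate was not checked gene by gene. Of 14 tested genes of jasmonate synthesis and conjugation, 9 rose in NIL-BPH9 at 3 h and 6 at 6 h, and 4 rose in 9311 at each time, with 0 lower. Over all genes 11.1% and 12.2% were called higher in NIL-BPH9 at 3 and 6 h, and 11.2% and 6.37% in 9311. AOS1, an allene oxide synthase at the entry of the pathway, rose by 1.21 at 3 h and 0.86 at 6 h in NIL-BPH9 and by 0.96 and 0.58 in 9311. OPR1, a reductase gene, rose by 1.20 at 3 h and 0.79 at 6 h in NIL-BPH9 and was at 0.00 and 0.20 in 9311 (adjusted p = 0.995 and 0.735). Between 3 and 6 h in NIL-BPH9, 5 of the 14 fell, CM-LOX2 (-0.72) and AOS1 (-0.35) most, and 2 rose, the lipoxygenase LOX1.1 (2.01) and the allene oxide synthase AOS2 (0.76), where 1761 of 16053 genes fell and 1663 rose. LOX1.1 had a 3 h mean of 5.86 ± 0.70 in NIL-BPH9, near the array median, so the size of its rise is uncertain. The count of 2 rises ran between 1 and 2 over the alternatives. The larger response in NIL-BPH9 at 3 h was called for 3 of 14 (OPR1 1.20, CM-LOX2 0.88, DAD1 0.51) where 8.71% of all genes were called. At 6 h it was called for 1 of 14 (DAD1 0.40, adjusted p = 0.0491), near the 5.77% of all genes, and this count differed in 15 of 20 alternatives, between 0 and 2. DAD1 was matched by name alone to a gene that the gene table names DAD-1. Its means at 0, 3 and 6 h were 12.54, 12.84 and 12.67 in NIL-BPH9. In 9311 they were 12.96 ± 0.26, 12.75 and 12.69. Whether this gene acts in jasmonate synthesis was not checked.

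Among 8 tested receptors and partners of JAZ proteins, BHLH148 and JAMYB rose in NIL-BPH9, 2 of 8 where 11.1% of all genes were called higher at 3 h and 12.2% at 6 h. The count of 2 rises stayed the same in 14 of 14 alternatives at 3 h. At 6 h it changed in 5 of 14, between 1 and 3. BHLH148 was up by 1.46 at 3 h and 2.24 at 6 h in NIL-BPH9, and by 1.38 at 6 h in 9311, where 3 h did not pass (0.64, adjusted p = 0.0571). JAMYB, a jasmonate-inducible MYB factor, rose by 1.41 at 3 h and 1.01 at 6 h in NIL-BPH9 and was at -0.09 and 0.07 in 9311 (adjusted p = 0.904 and 0.935). The receptor genes COI1A and COI1B and the adaptor gene NINJA were called in none of the 12 comparisons, with log2 changes between -0.14 and 0.21. COI2 fell in 9311 at 3 h (-0.16, adjusted p = 0.0322), a call lost in 8 of 14 alternatives. The co-repressor genes TPR2 (-0.29) and TPR3 (-0.31) fell in NIL-BPH9 at 6 h, and this count of 2 ran between 0 and 2 over the alternatives. Over all genes 10.4% were called lower in 9311 at 3 h and 13.0% in NIL-BPH9 at 6 h. Of the 2 amidohydrolase genes for hormone conjugates, ILL6 rose by 0.93 at 3 h and 0.60 at 6 h in NIL-BPH9 and by 0.53 at 3 h in 9311, and ILL5 rose by 0.21 at both times in 9311. The count of 1 rise in 9311 at 6 h ran between 0 and 1 over the alternatives. Means of ILL5 at 0, 3 and 6 h were 11.23, 11.44 and 11.44 in 9311 and 11.57, 11.47 and 11.61 in NIL-BPH9. In 9311, 11.2% of all genes were called higher at 3 h and 6.37% at 6 h.

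Clock genes were counted because time of day may have changed with infestation, and the sample titles do not give it. Of 6 tested clock genes 4 were called lower at 3 h and 4 at 6 h in NIL-BPH9, and 2 at 3 h and 0 at 6 h in 9311, where 8.66%, 13.0%, 10.4% and 4.74% of all genes were called lower. The count at 6 h in NIL-BPH9 ran between 1 and 5 over the alternatives. PRR95 fell by 1.06 at 3 h in NIL-BPH9 and by 0.58 in 9311. Its means at 3 and 6 h were 12.03 and 12.55 in NIL-BPH9 and 12.10 and 12.59 in 9311. At 0 h, 3 of 6 clock genes were called higher in NIL-BPH9 (0 to 3 over the alternatives), where 9.11% of all genes were. The part of time of day in the rises of the TIFY11 genes was not tested.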

How the data were processed

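RNA of 18 rice samples labelled as leaf sheath (2 lines, 3 times, 3 biological replicates) was measured on 1-colour arrays. The deposited values are MAS5 signals, per the submitters' processing notes. That the deposited scale is log2, with the 2% trimmed mean of the linear signal at 500.076 to 500.088 on every array, was read from the values. The MAS5 version is not given in the sources used here. No detection calls were used, and the number of arrays limits the precision. Gene identifiers of the platform annotation gave 17905 genes, and all of them were found in RefSeq's gene table (assembly ASM3414082v1), used for names and neighbours only. Of 57194 rice probe sets, 22436 had 1 gene and 95 several.

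Probe sets at or above their array's median on at least 3 arrays were tested (33094). The 6 group means were fitted in limma 3.58.1 (R 4.3.3) over all 18 arrays, with eBayes, an intensity trend, Benjamini-Hochberg adjustment over all tested probe sets and a threshold of 0.05. Errors of log2 changes are SE from this fit, errors of levels SD. The brightest tested probe set stood for each of 16053 genes. The fit was tested on simulated data. Same-numbered replicates did not deviate together (correlations -0.11 to 0.07, over 0.1 in 0 of 45 pairs), so the fit has no block. The labels call replicates biological without saying what separates them, so p-values measure the spread between these samples.

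The members, the gene lists and the rule for named genes (per member the 3 named genes of highest correlation and 5 over all members, and per list and comparison up to 2 called rises and 2 called falls) were chosen with earlier results of these data known. Sequences were not used here. Alternatives covered scaling, filter, pseudocount, trend, block, groups fitted, probe set and each replicate left out.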

Additional observations from a re-analysis of the deposited data

Results flagged for a closer look

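The response to infestation differed between NIL-BPH9 and 9311 by the interaction test for 4 of the 5 genes at both times. Of all tested probe sets 5.80 percent were called larger in NIL-BPH9 at 3 h and 3.83 percent at 6 h. NIL-BPH9 minus 9311, on the log2 scale, was 1.53 at 3 h and 1.45 at 6 h for TIFY11A, 0.36 and 0.46 for TIFY11B, 1.96 and 1.35 for TIFY11C, and 0.98 and 1.14 for TIFY11E. The 3 h and 6 h values of a gene share the uninfested arrays.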

How the results depend on the processing

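Over 942 alternative values of the 60 member log2 changes, 911 kept direction and side of the threshold, 12 lost the call, 6 gained it and 13 turned sign, the last only among values that had not passed. The count of members whose change between 3 and 6 h differed between the lines was 0 and became 1 (TIFY11C) with log2(signal + 32), with the replicate block and with only the groups compared (0 with each replicate left out), and the cause was not tested. The replicate block also ended the call of TIFY11E in 9311 at 3 h (adjusted p = 0.0639), as did quantile normalization (0.0745), median centring (0.0655), no filter (0.0655), no trend (0.0757) and only the groups compared (0.263), and it changed no other member call. Signs turned for NIL-BPH9 minus 9311 at 0 h in TIFY11A (-0.0788 to 0.3355 with a replicate left out) and TIFY11C (-0.21 to 0.10), and for the line difference in the 3-to-6 h change in TIFY11A (0.0011 with log2(signal + 32), -0.204 to 0.075 with a replicate left out) and TIFY11D (0.0219 with median centring, -0.0636 to 0.0302 with a replicate left out). Counts over all probe sets moved more: median centring gave 2983 against 4660 (NIL-BPH9, 3 h), 988 against 1700 (9311, 6 h against 3 h), 3014, 1635 and 2265 against 4769, 2468 and 3736 (lines at 0, 3 and 6 h), and 1676, 813 and 617 against 3482, 2325 and 1449 (line differences in the 3 h, 6 h and 3-to-6 h changes). Only the groups compared gave 2486 against 4906 and 805 against 2521 (9311, 3 and 6 h), 1734 against 4769 (lines at 0 h), 1221 against 2325 and 2356 against 1449 (line differences at 6 h and from 3 to 6 h). Without the trend the 6 h line difference fell to 1309, and with a replicate left out it ran between 1424 and 4052, and the 6 h count in NIL-BPH9 between 3533 and 5268 against 6188. The level of TIFY11B in NIL-BPH9 at 6 h was 12.83 after quantile normalization, against 12.88. Counts in the lists moved too: over all alternatives the fall of 5 synthesis genes in NIL-BPH9 from 3 to 6 h ran between 0 and 7, the larger 3 h response of 3 of them between 0 and 4, and the fall of 2 other JAZ genes in 9311 from 3 to 6 h between 0 and 2.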
